A study of Mus musculus with 40 samples.

Results

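The maturation step from day 6 to day 9 of induced fat cell differentiation was studied in cells without HMGN1 and HMGN2, a pair of chromatin proteins that bind nucleosomes (DKO; genotype Hmgn1-/- and Hmgn2-/-). Its members are 6 lists of H3K27ac ChIP-seq peaks, 3 of day 6 and 3 of day 9, out of the 24 lists of the series. Peaks that overlapped by at least 1 bp in any of the 6 lists were joined, which gave 144037 regions. A region called in 3 of 3 day 9 libraries and 0 of 3 day 6 libraries was named gained (15682 regions), the reverse was named lost (87 regions), and a region called in all 6 was named kept (28239 regions). The remaining regions had mixed calls, among them 42985 (29.8%) with a peak in just 1 day 9 library. The same sorting with the 20000 peaks of highest significance in each list (the 20000 strongest peaks) gave 26180 regions, of which 895 were gained, 257 lost and 11346 kept. These sets are defined by the calls in the 6 libraries, so their calls there are a description and were not tested.

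The cells were preadipocytes from the inguinal white fat of young adult C57BL/6 mice, WT or DKO, grown on collagen. They were differentiated in medium with insulin, dexamethasone, IBMX, T3 and rosiglitazone and then kept in maintenance medium with insulin and T3, so that both days 6 and 9 fell after the change of medium. WT libraries of days 6 and 9 (3 each), which did not choose the regions, serve as the comparison, and the libraries of days 0 and 3 are given as values. Nothing in the sources used here ties a GEO replicate to an animal, so p-values measure the spread between libraries. In a mixed culture, fewer cells of a type and less acetylation per cell cannot be told apart.

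H3K27ac is an acetyl mark on histone H3 that lies at active promoters and enhancers. In differentiating fat cells, PPARγ and C/EBP factors drive the genes of lipid storage, while preadipocyte and matrix genes are usually turned down. Browning of white fat adds genes of heat production and fatty acid burning, such as Ucp1, Cidea and Elovl3.

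Hmgn1 and Hmgn2 were checked first. In the 6 DKO libraries Hmgn2 was without a peak, against a mean of 1.63 kb under peaks in WT at day 6 and 1.35 kb at day 9. Hmgn1 held 1.41, 1.33 and 0.875 kb under peaks in the DKO libraries of day 6 and 3.14, 2.17 and 2.52 kb at day 9, so peaks remained at this gene in both genotypes. Which part of Hmgn1 is deleted is not given in the sources used here, and the Hmgn1 peaks check nothing further. The adipocyte markers Pparg, Cebpa, Fabp4, Adipoq, Plin1, Lpl and Cd36 all held peaks. Of 7 skeletal muscle markers 2 held a peak in at least 1 of these 6 libraries, while Myod1, Myf5 and Myog had none. Of 7 endothelial markers 4 held a peak, among them Pecam1 with 2 kept regions, while Cdh5, Tie1 and Emcn had none. All 7 macrophage and leukocyte markers held a peak, among them Spi1 with 6 kept regions and Csf1r with 2. Ucp1, the uncoupling protein that defines brown fat, had no peak from 5 kb upstream to the gene end. The study names Ucp1 among the brown-specific genes most raised in DKO against WT cells, with H3K27ac taken at known enhancers. Peaks farther upstream were not counted here.

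Reference sequence (RefSeq GRCm38.p6, the assembly of build mm10) is shown for 5 sites, to make visible what kind of DNA was gained or lost. They are an intron of Pde4d (gained; called in none of the day 0 libraries and in 3 of 3 WT libraries of day 6 and of day 9), an intron of Zfp664 (gained), intergenic sites near Slit2 and Bmper (the 2 strongest lost regions), and the bases just upstream of the Agt start (gained among the 20000 strongest peaks). The first 4 are the 201 bases around the summit. They are chr13:109066999-109067199, chr5:124900201-124900401, chr5:47902391-47902591 and chr9:23203033-23203233, all on the plus strand. The fifth is chr8:124569707-124569906 on the minus strand, 200 bases that end at the annotated start. Capitals mark matches to the 8 motifs searched.
Pde4d: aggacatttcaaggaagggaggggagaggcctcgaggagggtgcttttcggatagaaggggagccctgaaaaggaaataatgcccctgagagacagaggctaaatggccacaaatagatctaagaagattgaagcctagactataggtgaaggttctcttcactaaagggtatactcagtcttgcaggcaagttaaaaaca
Zfp664: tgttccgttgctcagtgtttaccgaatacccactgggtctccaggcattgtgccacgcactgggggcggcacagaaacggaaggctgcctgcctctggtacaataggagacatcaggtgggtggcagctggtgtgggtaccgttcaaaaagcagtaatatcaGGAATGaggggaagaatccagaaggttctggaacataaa
Slit2: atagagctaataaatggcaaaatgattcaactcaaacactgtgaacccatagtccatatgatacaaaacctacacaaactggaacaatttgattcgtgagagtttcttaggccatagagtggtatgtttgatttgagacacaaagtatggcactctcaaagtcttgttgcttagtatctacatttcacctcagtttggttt
Bmper: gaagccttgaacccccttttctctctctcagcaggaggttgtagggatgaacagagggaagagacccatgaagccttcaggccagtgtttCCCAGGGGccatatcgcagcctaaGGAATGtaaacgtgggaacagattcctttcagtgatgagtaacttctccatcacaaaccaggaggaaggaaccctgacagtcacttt
Agt: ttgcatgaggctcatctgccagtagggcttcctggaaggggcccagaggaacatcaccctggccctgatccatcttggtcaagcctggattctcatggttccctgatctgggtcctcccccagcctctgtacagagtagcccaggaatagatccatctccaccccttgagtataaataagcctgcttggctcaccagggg
The Zfp664 and Bmper windows each held the TEAD letters GGAATG, which 11.3% of the 144037 regions held within 100 bp of their summit. The Bmper window also held the EBF pattern CCCNNGGG, found in 7.06% of all regions. In the other 3 windows no motif matched.

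The day 9 libraries held far more peaks than the day 6 libraries. The day 6 libraries held 74867, 71869 and 47448 peaks, and the day 9 libraries held 115923, 112348 and 111219. The groups did not overlap, and replicate 3 of day 6 stood below the other 2. The mean was 64728 ± 15040 at day 6 and 113163 ± 2456 at day 9 (SD, n = 3), a 1.75-fold difference (two-sided p = 0.1 by exact permutation, the lowest value possible with 3 libraries per day). In WT the mean was 102083 ± 3506 at day 6 and 102807 ± 10342 at day 9. The DKO step exceeded the WT step by 47711 peaks (exact permutation of genotype within each day, p = 0.01).

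Peaks covered 35.4, 36.3 and 20.7 Mb of the genome at day 6 and 68.8, 63.5 and 61.2 Mb at day 9. The means were 30.8 ± 8.76 and 64.5 ± 3.90 Mb, and the step exceeded that of WT by 35.8 Mb (exact permutation, p = 0.005, the smallest that this test can give). With the number of peaks held at 20000 per list, the length in the day 6 libraries was 17.6, 18.7 and 12.9 Mb, and in the day 9 libraries 27.5, 25.4 and 24.6 Mb. The strongest peaks covered more at day 9 in every library, and this step too exceeded that of WT, by 11.0 Mb (exact permutation, p = 0.005). Read density in the background, recovered from the deposited values, was 10.6 ± 0.777 reads per kb at day 6 and 11.5 ± 1.17 at day 9 (exact p = 0.4). The median fold enrichment of the 20000 strongest peaks was 11.1, 11.3 and 8.53 at day 6 and 14.7, 14.0 and 13.8 at day 9. All 3 DKO libraries of day 6 thus had lower enrichment than the other 9 libraries of days 6 and 9, whose lowest value was 12.4. A change in the cells and a weaker ChIP at DKO day 6 cannot be told apart from peak lists, and this holds for the peak counts, the gained regions and the steps relative to WT.

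**Figure D1:**
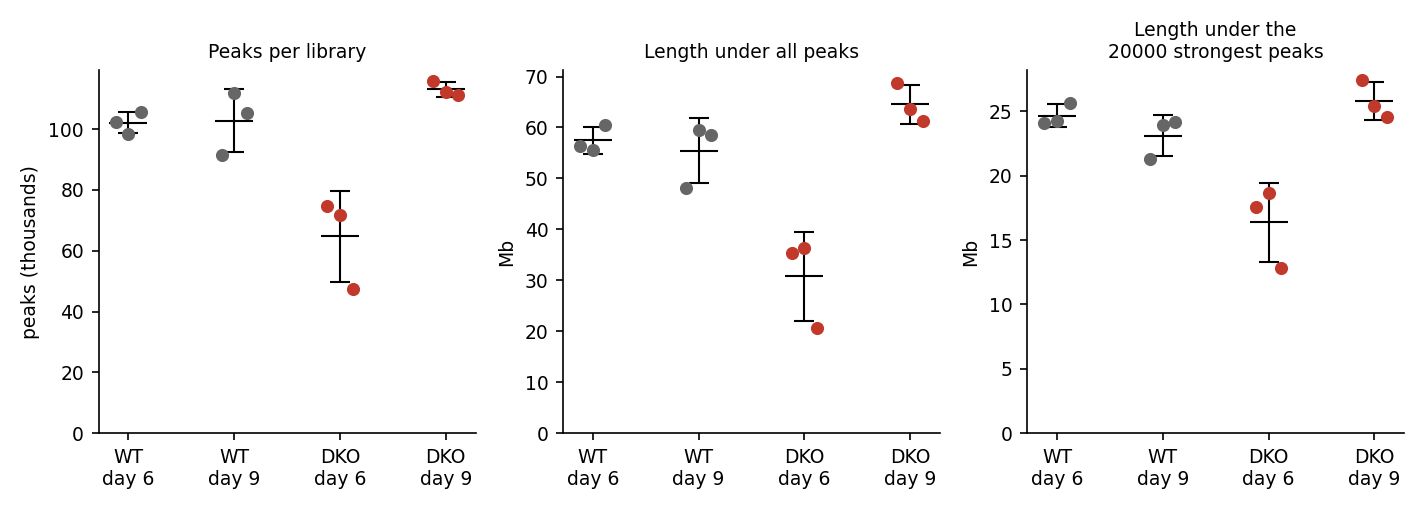
Peaks per library, length under all peaks (Mb) and length under the 20000 strongest peaks (Mb) in WT (grey) and DKO (red) at days 6 and 9. Points are libraries and bars are mean ± SD (n = 3); the 3 DKO libraries of day 6 sit below every other library in each panel.

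Most of the added peaks lay away from promoters. Peaks with a summit within 1 kb of a transcript start went from 24176 ± 2252 to 29944 ± 65.2, and the other peaks from 40552 ± 12788 to 83220 ± 2451. Promoter peaks were therefore 38.3 ± 6.23% of peaks at day 6 and 26.5 ± 0.568% at day 9 (exact p = 0.1, no overlap). The step was 12.3 percentage points more negative than in WT (-12.3, exact permutation, p = 0.01). Among the 20000 strongest peaks the promoter share was 66.7 ± 0.879% and 66.1 ± 0.602% (exact p = 0.4), and the step did not differ detectably from that of WT (exact p = 0.64).

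The gained regions were mostly distal, and short next to kept regions. Of the 15682 gained regions, 15.2% lay at a promoter, 49.4% in an intron, 4.62% in an exon and 30.7% between genes. Their median width was 518 bp, next to 378 bp over all 144037 regions, and their median fold enrichment was 5.08 at day 9. The 28239 kept regions were wider, with a median of 1210 bp, and 54.4% lay at a promoter. Gained regions held 10.07, 10.06 and 10.03% of the length under peaks in the 3 day 9 libraries. Kept regions also carried longer peaks at day 9. The median length covered in a kept region was 739, 763 and 490 bp at day 6 and 1068, 1018 and 995 bp at day 9 (exact p = 0.1, no overlap). The length under peaks in kept regions was 25.5 ± 4.92 Mb at day 6 and 37.5 ± 1.13 Mb at day 9 (n = 3), which is 84.6% and 58.1% of the length in each library.

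Most gained regions carried a peak elsewhere in the series. At least 1 of the 6 DKO libraries of days 0 and 3 called 11693 of them (74.6%), and 590 (3.76%) were called in none of the 18 other libraries. DKO libraries of day 0 called 44.6 to 59.8% of the gained regions and those of day 3 called 20.1 to 35.3%. WT libraries called 55.2, 53.7 and 60.5% of them at day 6 and 58.5, 74.3 and 71.7% at day 9, a difference of 11.7 percentage points with overlapping groups (exact p = 0.2). For the 895 gained regions of the 20000 strongest peaks, the WT libraries called 44.2, 49.5 and 50.4% at day 6 and 69.6, 72.8 and 71.5% at day 9. That difference of 23.3 points had no overlap (exact p = 0.1).

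The lost regions were few, and WT libraries also called fewer of them at day 9. Of the 87 lost regions, WT libraries called 66.7, 54.0 and 67.8% at day 6 and 12.6, 26.4 and 24.1% at day 9. The difference was -41.8 percentage points with no overlap (exact p = 0.1). Among the 257 lost regions of the 20000 strongest peaks, the WT means were 54.7 ± 1.92% and 28.3 ± 1.96% (exact p = 0.1, no overlap). The number of lost regions rested on the smallest library: without replicate 3 of day 6 it was 682, and without replicates 1 or 2 of day 6 it was 156 and 178. Without replicates 1, 2 or 3 of day 9 it was 162, 136 and 136, and gained regions numbered 23669 without replicate 3 of day 9. In WT itself, the same rule found 2339 gained and 2743 lost regions.

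**Figure D2:**
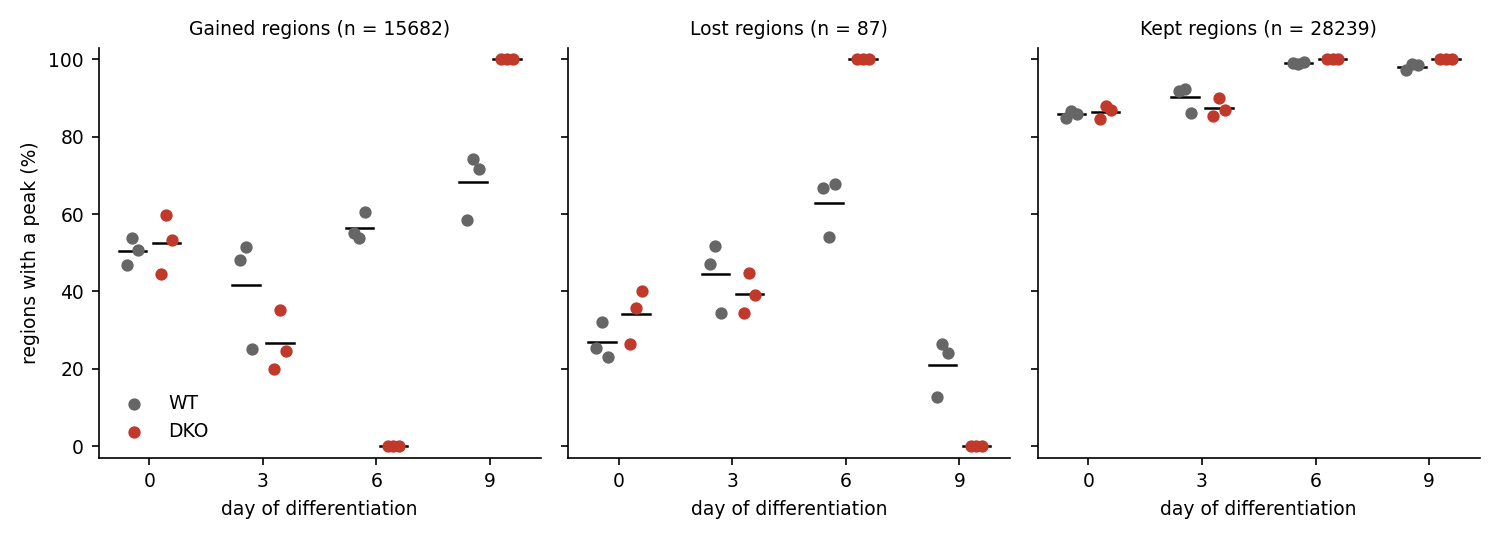
Percentage of the DKO gained, lost and kept regions that hold a peak, in each of the 24 libraries by day of differentiation. Points are libraries (grey, WT; red, DKO) and lines are means; the DKO values at days 6 and 9 are fixed by the rule, and in WT the lost regions go from a mean of 62.8% at day 6 to 21.1% at day 9.

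The strongest gained regions are named by their nearest protein-coding start. They lay at the promoter of Nipsnap3b, in introns of Crocc2, Zfp664, Lrrc49 and Sel1l3, near Upk3bl, Mog and Prr23a1, at the promoter of Gm10974, and in an intron of Pde4d, which encodes a cAMP phosphodiesterase. At Nipsnap3b (chr4:53011928-53012208) the fold enrichment was 14.8, 16.7 and 14.0 at day 9, with no call in the 3 day 6 libraries. WT libraries called the same site at 9.85, 8.62 and 13.1 at day 6 and 12.4, 11.9 and 10.3 at day 9. The Pde4d site (chr13:109066861-109068005) had 11.2, 12.9 and 12.1 at day 9, against 3.93 to 6.23 in WT at day 6 and 5.86 to 6.34 in WT at day 9. Of these 10 regions, 9 were called in 3 of 3 WT libraries on both days, and the one near Sel1l3 was called in 2 WT libraries of day 6.

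Gained regions among the 20000 strongest peaks were more enriched. Among the first 10 by strength were regions in Pard3, a cell polarity gene, at Steap2, in Sema4b, at Agt, far from Spdye4c, near Cdk5rap1, at Mical1 and near Gadd45g. Agt encodes angiotensinogen, which fat cells secrete. At the Agt promoter (chr8:124567901-124569854) the full lists gave 7.43, 7.44 and 4.22 at day 6 and 18.1, 19.3 and 15.9 at day 9. WT gave 6.11, 6.53 and 9.17 at day 6 and 9.54, 10.7 and 10.7 at day 9, so all 6 values were lower than those of DKO at day 9. This site was among the 20000 strongest in 3 of 3 WT libraries of day 9 and in none of the other 15 libraries that had no part in choosing the regions. At Gadd45g, a stress response gene, the values went from 5.46, 6.77 and 4.98 to 17.9, 12.4 and 20.6.

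The 10 strongest lost regions were weaker than the 10 strongest of the far larger gained set. Over the whole sets the median fold enrichment was near, 4.84 in lost regions (day 6) and 5.08 in gained regions (day 9). The 10 strongest lost regions lay near Slit2, Bmper and Man1a, in Vav3, Bclaf1, Rbfox2, Shld1, Ctla4 and Ppp2r1b, and at the promoter of Cd300ld3. At the Slit2 site (chr5:47902276-47902714) the fold enrichment at day 6 was 5.14, 7.49 and 7.35, and WT gave 8.59, 7.70 and 8.57 at day 6 and no call at day 9. Slit2 encodes a guidance ligand, and Bmper a binder of bone morphogenetic proteins. At Bmper (chr9:23202340-23203413) the values were 7.20, 6.33 and 5.25 at day 6, against 6.63, 3.92 and 6.59 in WT at day 6 and a call in 1 of 3 WT libraries at day 9. The Cd300ld3 site, by contrast, was called at day 6 in 3 of 3 DKO libraries and in 0 of 3 WT libraries. Among the first 10 lost regions of the 20000 strongest peaks were those at or near Pde7b, Nsd1, Morf4l2, Lamb3, Phf20, Styx, Clec2d, Hsd17b13 and Acsl1. Near Clec2d, a lectin-like receptor gene, the values went from 12.9, 13.4 and 7.57 to 6.19, 4.65 and 5.35. In WT they went from 9.83, 8.38 and 13.9 to 5.73, 4.50 and 4.23.

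Kept regions have a value in all 6 libraries and could be tested for enrichment. Their median fold enrichment was 8.66, 8.69 and 6.67 at day 6 and 11.8, 11.3 and 11.1 at day 9. On the log2 scale the median kept region was 0.46 higher at day 9 before any scaling. Changes are therefore given relative to the median kept region of each library, with limma and Benjamini-Hochberg adjusted p-values under 0.05. By this test 1184 of 28239 kept regions rose (4.19%) and 2296 fell (8.13%). Without centring 10399 rose and 187 fell, and with quantile normalization 1307 rose and 1342 fell, so the split between the directions depends on the scaling. Leaving out a library lowered the counts to between 532 and 868 higher and between 1263 and 1618 lower. Without replicate 1 of day 6, 663 rose and 1295 fell, and without replicate 3 of day 6, 787 rose and 1411 fell. Leaving out replicate 1 of day 9 gave 532 and 1263, replicate 2 gave 555 and 1313, and replicate 3 gave 650 and 1503.

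WT libraries moved the same way at more of these regions than at kept regions in general. Of 1176 regions that rose in DKO and were called in all 6 WT libraries, 65.7% were higher in WT at day 9 after the same centring, against 50.2% of all 26858 kept regions called in WT. Of 1938 regions that fell in DKO, 38.3% were higher in WT at day 9. The median WT change was 0.15 on the log2 scale for regions that rose and -0.11 for those that fell, next to 0.75 and -0.78 in DKO. Regions that fell had a median width of 976 bp and 43.7% lay at promoters, while regions that rose had a median width of 1346.5 bp and 57.2% lay at promoters.

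The 10 kept regions with the largest rise lay at the promoters of Bmp1, 3110040N11Rik, Pias3, Scarf2 and Pold4, in Pard3, and near Nedd9, Anapc15-ps, Gucy2d and 4930486L24Rik. Bmp1, which encodes a procollagen-processing protease, had 2.69, 6.73 and 3.50 at day 6 and 22.1, 18.6 and 13.6 at day 9 at chr14:70520372-70521181. The centred log2 change was 1.63 ± 0.27 (SE; limma, adjusted p = 0.00258). In WT the same promoter had 13.2, 16.6 and 18.9 at day 6 and 10.7, 8.23 and 11.6 at day 9. WT was thus higher than DKO at day 6 and lower than DKO at day 9. Near Nedd9, a focal adhesion scaffold gene, 24.2 kb from its start, the values went from 3.20, 3.30 and 4.22 to 13.5, 16.9 and 15.7 at chr13:41511285-41512371 (log2 change 1.59 ± 0.22, adjusted p = 0.00131). WT went from 3.57, 4.34 and 5.95 to 6.39, 6.84 and 8.16 at that site. In Pard3 the values went from 6.63, 5.56 and 3.95 to 20.6, 20.9 and 19.8, and in WT from 12.4, 9.32 and 9.54 to 18.1, 16.9 and 19.9. The 10 rises ranged from 1.41 to 1.63 on the log2 scale.

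The 10 kept regions with the largest fall lay near Chl1, Exoc6 and Nsd1, in Ugt1a6a, Hspd1, Cdk14 and Zc2hc1b, and at the promoters of Ccnl2, Psmd9 and Sart3. Near Chl1, a cell adhesion gene, the fold enrichment went from 13.0, 7.36 and 7.34 to 3.50, 2.61 and 4.21 at chr6:103362441-103363026 (log2 change -1.92 ± 0.23, limma, adjusted p = 0.00102). Ccnl2, which encodes a cyclin linked to splicing, went from 28.2, 24.7 and 17.6 to 10.8, 10.6 and 9.17 at its promoter (-1.70 ± 0.18, adjusted p = 0.000844). In WT the Ccnl2 promoter had 15.7, 17.6 and 16.7 at day 6 and 22.2, 21.7 and 21.4 at day 9, the opposite direction with no overlap. The site in Hspd1, which encodes a mitochondrial chaperone, went from 7.84, 8.37 and 5.20 to 3.39, 2.70 and 3.79. All 20 named kept regions stayed past the threshold in the same direction with no centring and with quantile normalization.

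**Figure D3:**
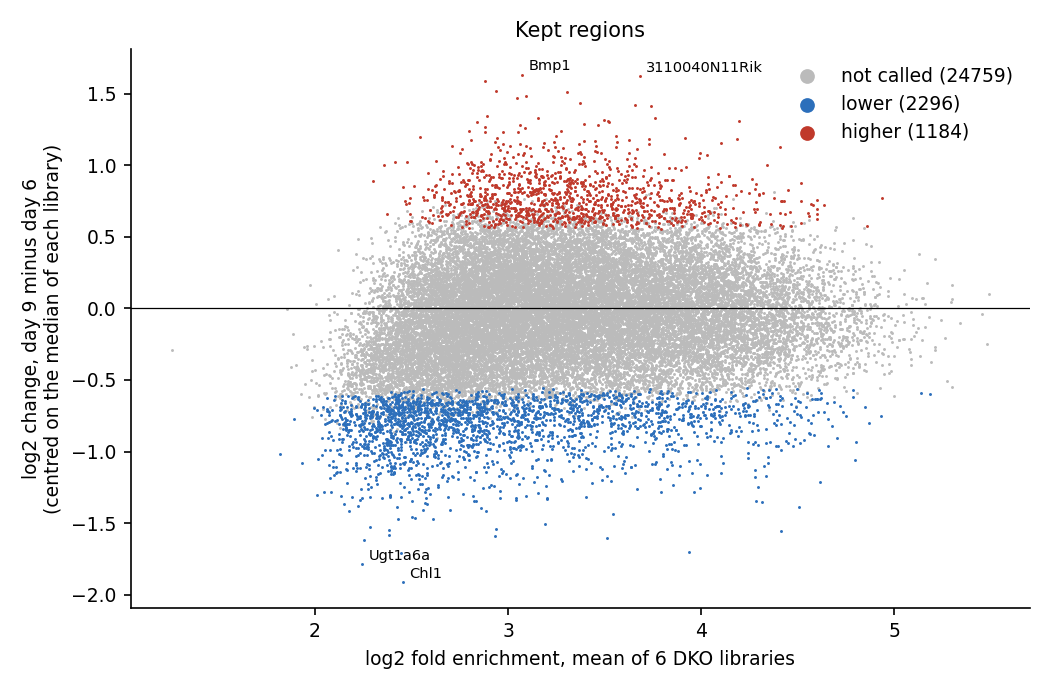
Each point is a kept region, with its mean log2 fold enrichment over the 6 DKO libraries on the x axis and its centred log2 change from day 6 to day 9 on the y axis. Red, 1184 regions higher; blue, 2296 lower; grey, not past the threshold; without centring 10399 were higher and 187 lower.

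At genes of lipid storage, as over all kept regions, more regions fell than rose relative to the median region. Of 120 kept regions at the 33 genes of adipocyte identity and lipid storage (from 5 kb upstream to the gene end), 14 fell (11.7%, next to 8.13% of all kept regions) and 3 rose (2.5%, next to 4.19%). Without centring the direction of this list flipped, with 23 higher and 1 lower, and its median log2 change went from -0.26 to 0.26. The 14 falls became 7 with quantile normalization, 7 without replicate 1 or replicate 2 of day 9, and 8 without replicate 3 of day 9 or without replicate 1 or 2 of day 6. Pparg, the master regulator of fat cells, held 6 of the 14 falls among its 18 kept regions. The largest was in a Pparg intron (chr6:115451834-115452553), with 5.36, 7.41 and 5.32 at day 6 and 3.50, 3.39 and 3.05 at day 9 (-1.37 ± 0.19, limma, adjusted p = 0.00131). The promoter of Srebf1, which encodes a driver of lipid synthesis, went from 24.1, 22.8 and 14.2 to 14.9, 14.2 and 15.5 (-0.94 ± 0.18, adjusted p = 0.00596). Before centring, day 6 replicate 3 was as low as the day 9 libraries there. In WT the Srebf1 promoter fell too, from 25.6, 34.3 and 33.1 to 15.3, 18.1 and 14.4 (centred log2 change -0.86, no overlap). The 3 rises were at Acaca, Acly and Angptl4. At Acly, whose product makes the acetyl-CoA for lipid synthesis, the promoter went from 4.91, 5.05 and 3.24 to 15.8, 11.3 and 12.6 (1.08 ± 0.19, adjusted p = 0.0033). The WT days overlapped at the Acly promoter and at the Pparg intron site.

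Genes of fatty acid oxidation and respiration had 57 kept regions, of which 6 fell (10.5%, next to 8.13% of all kept regions), at Acadl, Acadm, Acaa2, Cs and Cycs, and 0 rose. The 6 falls became 2 without replicate 1 of day 6 or replicate 2 of day 9, and 3 without replicate 3 of day 6 or replicate 1 of day 9. The brown and thermogenic genes had 41, of which 5 fell (12.2%), at Ppargc1b, Prdm16 and Ebf2, and 1 rose (2.44%, next to 4.19% of all), at Cox7a1. Their 5 falls became 2 without replicate 1 or 3 of day 6 and without replicate 1 or 2 of day 9. Their 1 rise became 0 without replicate 2 or 3 of day 6 and without replicate 1 or 2 of day 9. The Cox7a1 promoter, which serves a respiratory chain subunit typical of brown fat, went from 9.04, 4.6 and 4.02 to 15.1, 14.8 and 11.5 (0.79 ± 0.23, limma, adjusted p = 0.0363). After the same centring it rose in WT too, by 0.50 on the log2 scale with no overlap. Without centring both lists flipped, to 17 higher and 0 lower for oxidation genes and 10 higher and 0 lower for brown genes. With quantile normalization the brown genes had 2 higher and 1 lower.

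Preadipocyte and matrix genes had 45 kept regions. Of these, 6 rose (13.3%, next to 4.19% of all kept regions) and 3 fell (6.67%, next to 8.13%). The rises were at Col1a1, Col5a3, Pdgfrb, Thy1, Itgb1 and Serpina3n, and the falls at Col3a1 and Col5a3. The study uses Col5a3 and Serpina3n as markers of differentiating adipocytes, so this list is not one of precursor genes alone. The median log2 change of this list was positive under every scaling, 0.19 centred, 0.23 with quantile normalization and 0.70 without centring. At chr11:94932686-94934714, upstream of Col1a1, which encodes the main chain of type I collagen, the values went from 5.48, 8.24 and 2.74 to 15, 13.6 and 14.1 (0.99 ± 0.24, limma, adjusted p = 0.0161). Without replicate 1 of day 9, 1 region of the list rose and 2 fell. The rises numbered 2 without replicate 1 or 3 of day 6 or replicate 3 of day 9, and 3 without replicate 2 of day 9. Among sterol synthesis genes 3 of 31 kept regions rose (9.68%), Cyp51 among them, and 2 fell (6.45%), at Hmgcs1 and Sqle. Of 37 at contractile, TGF-beta and YAP target genes 2 rose (5.41%, near the 4.19% of all), Tgfb1 among them. In that list 1 fell (2.7%), at Tead1. Of 29 at AP-1 and immediate early genes 2 rose, both at Fosl1, and 2 fell, both at Myc (6.9% each). Without replicate 2 of day 9, 0 of the 29 rose and 0 fell. Of 114 at glucocorticoid and cAMP response genes 1 rose (0.877%) and 7 fell (6.14%). Both shares were below those over all kept regions. Without centring this list flipped to 45 higher and 0 lower. Those 7 falls became 2 without replicate 2 of day 9, 3 without replicate 1 or 2 of day 6 and 4 without replicate 3 of day 9. Of 11 at macrophage and leukocyte markers 3 fell (27.3%) and 0 rose. The falls lay in the windows (5 kb upstream to gene end) of Cd68 and Spi1. After the same centring, WT was higher at day 9 with no overlap at the Cd68 region, and the WT days overlapped at those of Spi1. This list had 0 to 2 falls when 1 library was left out, against 1 higher and 0 lower without centring. Cell cycle genes had 9 kept regions, of which 2 rose (22.2%, next to 4.19% of all) and 1 fell (11.1%, next to 8.13%). Of these 9, 0 rose without replicate 1 or 2 of day 6 or without any 1 replicate of day 9. In those fits 1 fell without replicate 3 of day 9 and 0 in the others.

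**Figure D4:**
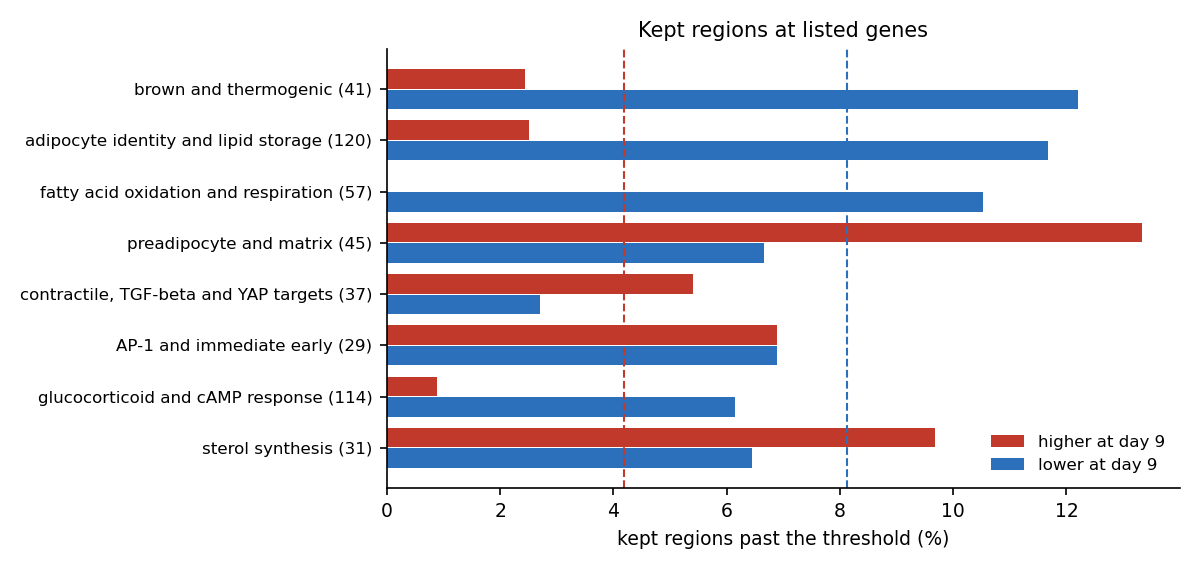
Percentage of the kept regions at listed genes that were higher (red) or lower (blue) at day 9 by limma, relative to the median region, for lists with at least 20 kept regions (number in brackets). Dashed lines are the shares over all kept regions, 4.19% and 8.13%; without centring every list shown had more regions higher than lower.

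The length under peaks at genes, in kb from 5 kb upstream to the gene end, was mostly greater at day 9. Of 14944 protein-coding genes with a peak in the 6 libraries, 10953 (73.3%) had more in every day 9 library than in any day 6 library, and 17 (0.114%) had less. With 3 against 3 no gene could pass the test (lowest adjusted p = 0.136 by exact permutation), so genes are given by their values. In WT 1571 genes had more and 2417 less, both with no overlap. Within the 20000 strongest peaks, 5194 of 11484 genes (45.2%) had more and 86 (0.749%) had less.

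Preadipocyte and matrix genes stood at 22 of 25 with more (88%, next to 73.3% of all genes), and at 15 of 18 (83.3%, next to 45.2%) within the 20000 strongest peaks. Col1a1 had 4.28, 3.78 and 1.73 kb at day 6 and 17.8, 18 and 17.4 kb at day 9, and in WT the mean went from 13.2 to 17.5 kb. Pdgfrb, a receptor of stromal precursors, had 3.21, 4.31 and 1.43 kb at day 6 and 16.5, 14.2 and 14.5 kb at day 9, against WT means of 12.8 and 14.4 kb. Sparc, a matrix glycoprotein gene, went from 11.6, 11.3 and 8.43 kb to 23.0, 20.6 and 20.9 kb. At these genes the DKO libraries of day 6 were far below WT, and those of day 9 were near or above it. The length under all peaks went the same way, so the direction was not particular to these genes. Its means were 30.8 Mb in DKO against 57.5 Mb in WT at day 6, and 64.5 against 55.4 Mb at day 9. At Col1a1 and Pdgfrb the day 6 gap to WT was larger in proportion than in that total. A change in the cells and a weaker ChIP at DKO day 6 cannot be told apart here either.

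Of 32 adipocyte identity and lipid storage genes with a peak, 26 had more (81.2%), and 13 of 30 (43.3%) within the 20000 strongest peaks. Both shares were near those over all genes, 73.3% and 45.2%. Lep, which encodes leptin, held no peak. Acaca, the gene of a rate-limiting enzyme of fatty acid synthesis, had 11.1, 11.6 and 7.13 kb at day 6 and 25.3, 23.1 and 22 kb at day 9. Pparg had 21.1, 21.2 and 10 kb at day 6 and 26.6, 25.2 and 23.8 kb at day 9, while the WT mean went from 25.7 to 13.5 kb with no overlap. Cd36, a fatty acid transporter gene, had 22.9, 21.1 and 15.9 kb and then 28.1, 27 and 25.7 kb, and the WT mean went from 19.6 to 17.2 kb. Adipoq, which encodes adiponectin, went from 6.21, 5.30 and 4.11 kb to 7.81, 7.41 and 6.94 kb. Fabp4, the fatty acid binding protein gene, overlapped between days, with 8.12, 7.89 and 6.10 kb and then 8.48, 7.95 and 8.04 kb. Cebpa had 3.67, 3.78 and 3.44 kb and then 4.01, 4.16 and 4.22 kb.

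Of 23 brown and thermogenic genes with a peak, 20 had more (87%, next to 73.3% of all genes), and 2 of 14 (14.3%, next to 45.2%) within the 20000 strongest peaks. Elovl3, a fatty acid elongase gene of brown fat, had 1.82, 1.61 and 0.343 kb at day 6 and 3.68, 3.33 and 3.72 kb at day 9, against WT means of 0.186 and 0.578 kb. Ide, which encodes the insulin-degrading enzyme, had no peak at day 6 and 1.2, 1.05 and 0.909 kb at day 9, and none in the 6 WT libraries. Ucp3 went from 0.535, 1.21 and 0.200 kb to 4.41, 3.90 and 3.50 kb, and in WT from a mean of 1.05 to 1.42 kb. Cidea, a lipid droplet protein gene, had 0, 0.188 and 0 kb and then 1.13, 0.7 and 0.624 kb. Ebf2, a factor of brown precursors, had 14.1, 14.9 and 8.09 kb and then 26.1, 22.3 and 23.9 kb. Ppargc1a, a coactivator of mitochondrial genes, had 2.79, 2.03 and 1.16 kb at day 6 and 2.51, 2.11 and 2.27 kb at day 9, and Ppara 2.99, 3.70 and 2.18 kb and then 3.52, 3.71 and 2.70 kb. These last 2 genes overlapped between the days.

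Genes of the glucocorticoid and cAMP response had more in 13 of 16 cases (81.2%, next to 73.3% of all genes), and in 9 of 16 (56.2%, next to 45.2%) within the 20000 strongest peaks. Zbtb16, a zinc finger factor induced by glucocorticoids, had 57.9, 60.1 and 37.1 kb at day 6 and 117, 112 and 111 kb at day 9, with 18 gained and 24 kept regions. Its WT mean went from 77.4 to 93.3 kb. Fkbp5, a classical glucocorticoid target, went from 36.1, 37.9 and 21.4 kb to 63.7, 61.5 and 59.3 kb, and in WT from a mean of 47.4 to 49.5 kb. Of the AP-1 and immediate early genes 10 of 12 had more (83.3%, next to 73.3%), and 8 of 12 (66.7%, next to 45.2%) within the 20000 strongest peaks. Fosl2 had 9.52, 11.6 and 7.45 kb and then 17.7, 15.3 and 16.1 kb, and Jun 4.36, 4.50 and 3.74 kb and then 5.26, 5.56 and 5.03 kb.

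Contractile, TGF-beta and YAP target genes had more in 15 of 17 cases (88.2%, next to 73.3% of all genes). Within the 20000 strongest peaks they had more in 6 of 10 (60%, next to 45.2%). Of the 24 fatty acid oxidation and respiration genes 17 had more (70.8%), and 12 of 23 (52.2%) within the 20000 strongest peaks, shares near the 73.3% and 45.2% over all genes. Of the 12 sterol synthesis genes 10 had more (83.3%, next to 73.3%), and 7 of 12 (58.3%, next to 45.2%) within the 20000 strongest peaks. The 4 white adipocyte genes of the study, a list not independent of these samples, had more in 3 cases (75%). That share was near the 73.3% over all genes. Slc6a6, a taurine transporter gene, went from 8.47, 7.78 and 4.13 kb to 19.9, 17.4 and 15.3 kb. Adamts5 went from 5.54, 5.59 and 3.87 kb to 12.2, 12.1 and 11.9 kb, and Galnt9 from 1.36, 1.81 and 0.229 kb to 9.64, 7.05 and 7.31 kb. Pnp2 overlapped, with 0, 0.337 and 0 kb and then 0.362, 0.288 and 0.285 kb.

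**Figure D5:**
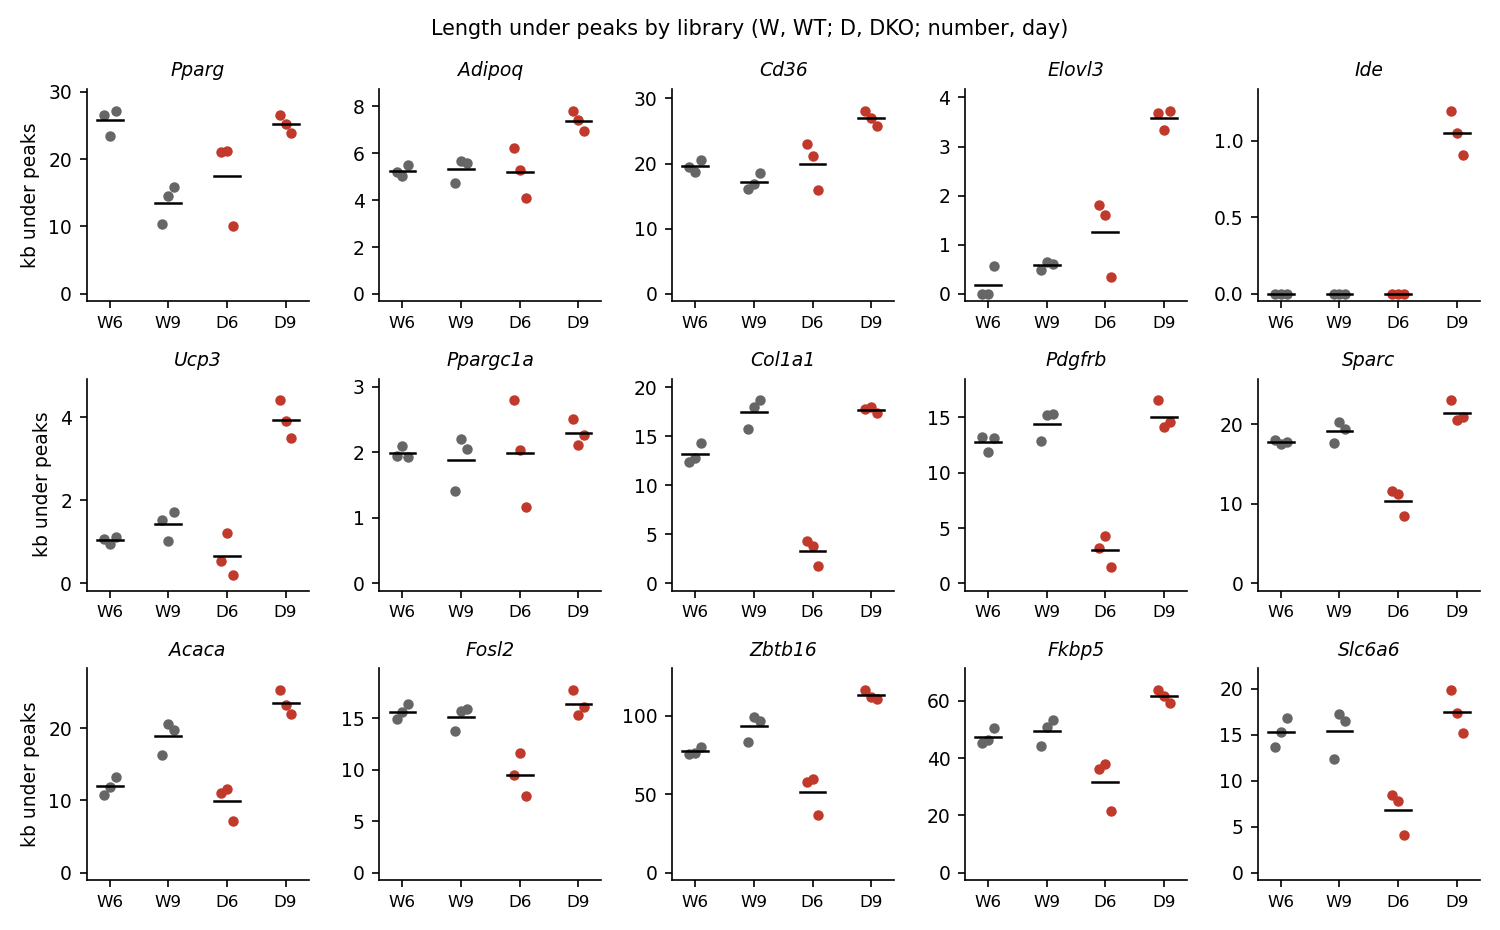
Length under peaks (kb, from 5 kb upstream to the gene end) at 15 genes in the WT (grey; W6, W9) and DKO (red; D6, D9) libraries of days 6 and 9. Points are libraries and lines are means (n = 3). Col1a1, Pdgfrb and Sparc show DKO at day 6 below WT, as did the length under all peaks. Elovl3, Ide and Ucp3 show DKO at day 9 above every other group.

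Of 7 macrophage and leukocyte markers 2 had more (28.6%, well below the 73.3% of all genes). Their summed length was 9.42 to 19.9 kb at day 6 and 18.1 to 22.6 kb at day 9. Spi1, which encodes the myeloid factor PU.1, had 5.45, 7 and 3.23 kb at day 6 and 9.27, 7.56 and 7.88 kb at day 9. Among the 20000 strongest peaks Spi1 had 0.688, 1.27 and 0.530 kb at day 6 and none at day 9. The endothelial sum was 1.17 to 2.38 kb and then 4.44 to 5.72 kb, the mesothelial sum 0.373 to 0.610 kb and then 2.85 to 5.43 kb, and the muscle sum 0 and then 1.19 to 1.36 kb. Cell cycle genes had more in 3 of 11 cases (27.3%, also below the 73.3% of all genes). The part of other cell types in the results was not tested.

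The 17 genes with less at day 9 were looked at because they ran against the rest, and are named after their values were seen. Ms4a4a, a macrophage membrane gene and, with 2 lost regions, among the 3 genes with the most, had 3.41, 4.05 and 2.26 kb at day 6 and 1.25, 0.707 and 1.02 kb at day 9. Mrc1, which encodes the mannose receptor of macrophages, had 2.18, 3.47 and 0.718 kb and then 0.548, 0 and 0.173 kb. In WT the means went from 2.20 to 0.287 kb for Ms4a4a and from 0.621 to 0.198 kb for Mrc1, both with no overlap. Of the 7 macrophage and leukocyte markers listed, 0 had less. Saa3, an acute phase gene, had 4.06, 4.27 and 2.61 kb and then 2.45, 1.64 and 2.59 kb. Mat2a, the gene of the enzyme that makes S-adenosylmethionine, had 6.00, 6.74 and 5.42 kb and then 4.82, 5.35 and 4.68 kb. Hspe1 had 4.15, 4.06 and 3.79 kb and then 3.72, 3.10 and 3.14 kb. WT had less at these genes too, with no overlap. Its means went from 6.11 to 1.74 kb at Saa3, 7.12 to 4.21 kb at Mat2a and 4.00 to 3.00 kb at Hspe1. Without replicate 3 of day 6, 123 genes had less.

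Gained regions fell within 5187 protein-coding genes, 458 of which held at least 5, and lost regions within 62. The genes with gained regions were long, with a median length of 42.4 kb against 17.4 kb for all 21911 genes. The most gained regions lay in Gm20388 (96) and Fgfr2 (33), which the annotation draws at 4435 and 2961 kb. They were followed by Ror1 (26), Slit3 (25), Foxp1 (24), Fbn1, Lpp and Tns1 (23 each), and Adgrd1 and Prkce (19 each). Ror1, a Wnt receptor gene, had 12.6, 14.7 and 3.96 kb under peaks at day 6 and 66.5, 59.8 and 54.7 kb at day 9, against WT means of 44.9 and 56.4 kb. Fbn1, which encodes the microfibril protein fibrillin, had 40.0, 41.1 and 16 kb and then 107, 93.4 and 90.2 kb. Ms4a4a, Nrp1 and Rad23b held 2 lost regions each and the other 59 genes 1 each, with 1190002N15Rik and 4931406C07Rik first by name.

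The motif content of the 20000 strongest peaks is given by its values, since with 3 libraries per day no motif could pass the test (exact permutation, lowest p = 0.1). Of 8 motifs searched within 100 bp of the summit on both strands, 1 had groups that did not overlap, and with all peaks 7 of 8 did not overlap. The AP-1 site TGACTCA or TGAGTCA was in 2.22 ± 0.0751% of peaks at day 6 and 2.05 ± 0.0861% at day 9, and the C/EBP pattern TTGCNNCAA in 0.690 ± 0.025% and 0.698 ± 0.0355% (n = 3). The ERR site TCAAGGTCA was in 0.485 ± 0.0218% and 0.433 ± 0.0208%, the motif without overlap in the 20000 strongest peaks. The direct repeat bound by PPAR and RXR was in 0.272 ± 0.0202% and 0.265 ± 0.0278%. The EBF pattern was in 10.8 ± 0.52% and 11.4 ± 0.525%, and the TEAD letters in 10 ± 0.0284% and 10 ± 0.127%. Among gained regions of all peaks the AP-1 site was in 3.54% and the PPAR repeat in 0.504%, next to 3.43% and 0.45% of all 144037 regions.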

How the data were processed

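H3K27ac ChIP-seq libraries of DKO and WT cells, 3 per genotype and day, were grouped by GEO's labels. Per the labels and the study's methods, the authors trimmed reads (cutadapt 1.18), aligned them to mm10 with BWA 07.17 and called narrow peaks per library with MACS2 2.1.1.20160309, without pooling replicates. Which input served as control is not given in the sources used here, and the 16 inputs were not analysed here. The deposited lists give a fold enrichment ratio at each summit, the −log10 p-value and −log10 q-value, a score (not used) and the summit offset. A peak missing from a list is not a measured absence of signal, since the authors' threshold on the q-value (lowest −log10 q 2.01 to 2.03) decides it.

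Peaks of the 6 DKO lists were joined and sorted with Python 3.11.15, numpy 2.4.6, scipy 1.17.1 and pandas 2.3.3. Strength is the −log10 q. Genes came from GENCODE M21 on GRCm38, and 0 peaks lay outside its chromosome lengths. Read heights were recovered from the deposited fold ratio and p-value, and were whole within 0.001 on the log10 scale for 100% of peaks in the 6 lists. Reads mapped are unknown. Differences of means were tested by two-sided exact permutation (20 relabellings, smallest p 0.1; 400 and 0.005 for DKO minus WT). Kept regions were fitted with limma 3.58.1 (R 4.3.3) on log2 of the highest fold enrichment, centred on the library median. The procedures were tested on simulated data. Alternatives were the 20000 strongest peaks, −log10 q of at least 5, windows of 250 bp around summits, joining from 100 bp, other scalings, other gene and promoter windows, a replicate block, and leaving out each library. Named were Hmgn1 and Hmgn2, the 10 strongest gained and lost regions, the 10 genes with most gained and 5 with most lost regions, up to 10 kept regions per direction, members of 14 gene lists with large differences, and a fixed set of genes. The regions, lists and tests were chosen with earlier results of these data known. Some genes that the naming rule selects are not reported here.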

Additional observations from a re-analysis of the deposited data

Results flagged for a closer look

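In 4 measures the step from day 6 to day 9 differed between the genotypes, each by exact permutation of genotype within each day. The DKO step in the number of peaks exceeded that of WT by 47711 (exact p = 0.01), and the step in covered length by 35.8 Mb (exact p = 0.005). For the 20000 strongest peaks the excess in length was 11.0 Mb (exact p = 0.005). The promoter share stepped by -12.3 percentage points relative to WT (exact p = 0.01). In all 4, the 3 DKO libraries of day 6 stood apart from the other 9 libraries of days 6 and 9. The gained, lost and kept regions rest on the same 3 libraries.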

How the results depend on the processing

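The excess of peaks and covered length at day 9 kept its direction under each alternative run, with 39795 to 53505 peaks and 28.7 to 37.0 Mb when libraries or replicate numbers were left out. The promoter share was lower at day 9 under each, but its step relative to WT was -0.627 points with the 20000 strongest peaks, no longer past the threshold. With those peaks there were 895 gained, 257 lost and 11346 kept regions, 595 kept regions higher and 746 lower, and 5194 genes with more and 86 with less. Summit windows gave 694 lost regions. No centring gave 10399 higher and 187 lower kept regions, and quantile normalization 1342 lower. Leaving out libraries gave 16166 to 28849 gained, 136 to 953 lost, 209 to 868 higher, 474 to 1618 lower, and 19 to 162 genes with less. Motif differences in percentage points turned sign with all peaks for AP-1 (0.286), the PPAR repeat (0.0521), ERR (0.0282), the glucocorticoid receptor (0.0047) and EBF (-0.62), and within 50 bp for TEAD (-0.127). With libraries left out they spanned -0.02 to 0.0275 for C/EBP, -0.0192 to 0.00833 for the PPAR repeat, -0.055 to 0.09 for TEAD and -0.0075 to 0.0025 for NF1. The causes were not tested beyond the fewer peaks or libraries that an alternative uses.

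No pairing by replicate number was seen in kept regions. After centring, deviations of same-numbered libraries from their day mean correlated at -0.043, -0.012 and -0.000354. Centring removes effects shared by a whole library, so whether same-numbered libraries share an animal or culture was not tested. With a replicate block limma called 1092 kept regions higher and 2215 lower, and 12183 genes had more and 29 less at day 9 in every number. Among the gene lists the block moved counts of kept regions by 1, as for adipocyte genes (2 higher), matrix genes (7 higher), contractile genes (1 higher) and leukocyte markers (2 lower). It moved no other count of calls by over 1.5 times, and its exact test cannot go below p = 0.25. Depth is known only as background reads, so a peak absent at day 6 was not detectable at the authors' threshold, not absent.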
